A study of Mus musculus with 7 samples.

Results

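The 9 genes described here encode proteins that carry glucose into the islet cell, set the flux through its first phosphorylation and through pyruvate, and read the glucose level out as transcription. They were picked by name and are 9 of the 21899 genes listed in the data. Slc2a2 and Slc2a1 are the transporters. G6pc2, Pfkfb2, Pklr and Pcx are the enzymes. Mlxipl, Txnip and Arrdc4 are the glucose-response factor and 2 of its target genes. They were measured by RNA-seq of pancreatic islets, the endocrine clusters with the insulin-secreting β-cells, from second-generation (F2) male C57BL/6J mice.

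The control-F2 animals descend from founder (F0) dams injected with vehicle, benzyl benzoate in corn oil, in late gestation. The androgen-exposed lineage (AE-F2, given as hyperandrogenism in the labels) descends from dams injected with dihydrotestosterone in the same vehicle over the same days. In both lineages first-generation (F1) males were bred to unrelated wild-type females, so the F2 animals themselves received no androgen and both groups share the vehicle injection of the F0 dam. The islets were released by collagenase, separated on a gradient and picked by hand, so they can hold cells of the surrounding pancreas and vessels. The age of these F2 mice and the number of mice per library are not given in the sources used here.

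The labels list 3 control and 4 hyperandrogenism samples. Values are given for 1 library of each group, control replicate 1 and hyperandrogenism replicate 4, and the other 5 samples were not analysed here. There were therefore no replicates, no test of the groups was made, and every difference below is between these 2 libraries. The depth was 16285876 rounded counts for control-F2 and 21278503 for AE-F2, which was 1.31 times as deep. Levels are given as CPM, counts scaled to a common library depth, with TMM factors, which correct the totals for genes that take up a changed share of the reads. The log2 ratio sets AE-F2 over control-F2 after 0.5 counts were added. Its 95% interval is the exact binomial one (Clopper-Pearson) for the portion of a gene's counts that came from AE-F2. It covers counting error only, neither the spread between animals nor copies made by PCR. A gene is called lower or higher here where this interval does not reach a ratio of 1 (log2 ratio of 0).

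In the rodent β-cell glucose enters through GLUT2, the product of Slc2a2, is phosphorylated, and passes through glycolysis to pyruvate, which feeds the mitochondria. The ATP so formed closes potassium channels and leads to insulin release, so the steps from entry to pyruvate act as the cell's glucose sensor. Part of the glucose signal also reaches the nucleus. ChREBP, encoded by Mlxipl, pairs with Mlx and binds carbohydrate response elements, which are E-box-like letters repeated at a fixed spacing, in genes such as Txnip, Arrdc4 and Pklr. TXNIP, an α-arrestin, binds thioredoxin and lowers glucose uptake by drawing transporters off the cell surface.

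All 9 genes had a RefSeq promoter entry (GRCm38.p6), with 15 annotated starts in all. The 250 bases before 5 of these starts are printed to show which letters of the carbohydrate response type stand before the glucose-responsive genes and before Slc2a2 and Mlxipl. Each line runs 5' to 3' on the gene's own strand and ends at the base before the start. Capitals mark matches on either strand to 4 motifs. The first is the E-box, CACGTG. The second is a spaced E-box pair, in which CANGNG is followed after 5 bases of any kind by its own reverse complement. The third is a direct repeat, in which CACGNG is followed after 5 bases of any kind by the same letters again. The fourth is the CCAAT box. No 2 matches in these windows overlapped. The letters of the repeat were chosen after the Txnip promoter had been read, so its match there is by construction. The first line lies at chr3:96557707-96557956 on the plus strand, and the following lines lie at chr7:68749239-68749488 on the minus strand, chr3:89136373-89136622 on the plus strand, chr3:28697653-28697902 on the plus strand and chr5:135089640-135089889 on the plus strand.
Txnip: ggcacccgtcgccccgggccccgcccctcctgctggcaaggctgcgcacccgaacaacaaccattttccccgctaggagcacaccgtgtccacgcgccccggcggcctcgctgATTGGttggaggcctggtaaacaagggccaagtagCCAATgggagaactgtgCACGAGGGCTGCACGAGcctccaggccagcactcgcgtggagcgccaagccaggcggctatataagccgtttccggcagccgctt
Arrdc4: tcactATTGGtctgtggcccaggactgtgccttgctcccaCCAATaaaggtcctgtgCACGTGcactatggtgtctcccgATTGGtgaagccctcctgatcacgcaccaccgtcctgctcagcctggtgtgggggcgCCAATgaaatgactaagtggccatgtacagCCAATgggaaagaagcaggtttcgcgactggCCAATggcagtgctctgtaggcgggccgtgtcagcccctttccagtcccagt
Pklr, start 2: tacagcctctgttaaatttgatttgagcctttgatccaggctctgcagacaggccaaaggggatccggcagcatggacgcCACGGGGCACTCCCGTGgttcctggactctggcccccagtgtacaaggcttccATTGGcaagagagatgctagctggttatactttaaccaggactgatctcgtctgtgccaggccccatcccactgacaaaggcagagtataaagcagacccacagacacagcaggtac
Slc2a2: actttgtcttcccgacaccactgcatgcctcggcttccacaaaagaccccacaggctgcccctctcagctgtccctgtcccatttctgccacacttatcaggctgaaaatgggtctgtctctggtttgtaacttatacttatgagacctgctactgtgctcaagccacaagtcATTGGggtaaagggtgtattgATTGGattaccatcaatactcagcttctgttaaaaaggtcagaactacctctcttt
Mlxipl, start 1: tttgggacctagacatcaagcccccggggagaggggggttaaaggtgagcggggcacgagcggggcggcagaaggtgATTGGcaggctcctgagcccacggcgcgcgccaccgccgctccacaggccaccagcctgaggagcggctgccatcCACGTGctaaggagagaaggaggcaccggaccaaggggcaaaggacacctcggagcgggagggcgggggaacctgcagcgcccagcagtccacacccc

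The Txnip promoter held the repeat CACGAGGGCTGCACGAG 85 to 69 bases before the start, with a CCAAT box on each strand just upstream of it. The same pattern was found in 15 of 32851 promoters of this length, 0.0457%. The second start of Pklr held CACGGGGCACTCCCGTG, a match to the spaced pair, 170 to 154 bases before the start. Among the promoters of the 9 genes the spaced pair was found at 2 starts, the other being the second start of Pfkfb2, against 0.454% of all promoters. The Arrdc4 promoter held an E-box 193 to 188 bases before the start and 6 CCAAT boxes. The E-box was found at 4 starts, 1 each of Pfkfb2, Pcx, Mlxipl and Arrdc4, and in 6.02% of all promoters. CCAAT was found at 7 starts and in 33.8% of all promoters. Slc2a2 had 2 CCAAT boxes and none of the E-box-type letters in this window. A match is a string of letters and not a measured binding site, and a window without a match says nothing about sites elsewhere.

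**Figure D1:**
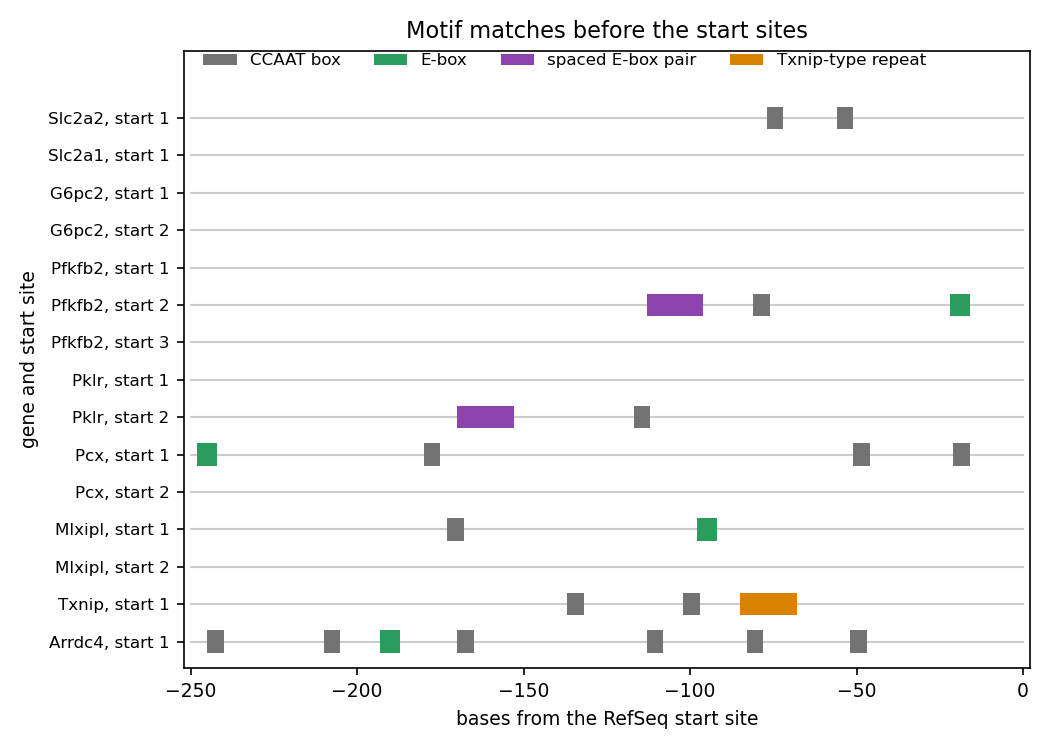
Motif matches in the 250 bases before each of the 15 annotated starts of the 9 genes, with distance before the start in bases on the x axis and 1 row per start. Colours stand for the 4 motifs, and the repeat before Txnip lies 85 to 69 bases from the start.

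All 9 genes passed the minimum mean of 10 counts. In 4 of them, Txnip, Slc2a2, Mlxipl and G6pc2, the level was lower in the AE-F2 library, and in none was it higher, while the interval of the other 5 held equality. The direction of G6pc2 turned when the libraries were scaled to β-cell markers, as given with that gene. Of all 13627 genes passing this minimum the interval lay below equality in 13.7% and above it in 13.2%. Counting intervals narrow with depth, so the 6 of the 9 genes that averaged at least 1000 counts are better read against the 3471 genes at that level, of which 25.5% lay below equality and 16.0% above. The 4 lower genes are among these 6, the others being Pcx and Pfkfb2. None of the 9 reached a 2-fold difference, which 3.82% of the 13627 genes did (3.16% higher and 0.660% lower). The median log2 ratio of the 9 genes was -0.07, with a range from -0.48 to 0.11, beside a median of -0.02 over the 3471 genes. In bulk islets fewer cells of a type and less RNA per cell cannot be told apart. The plot of ratios shows these values with their intervals.

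**Figure D2:**
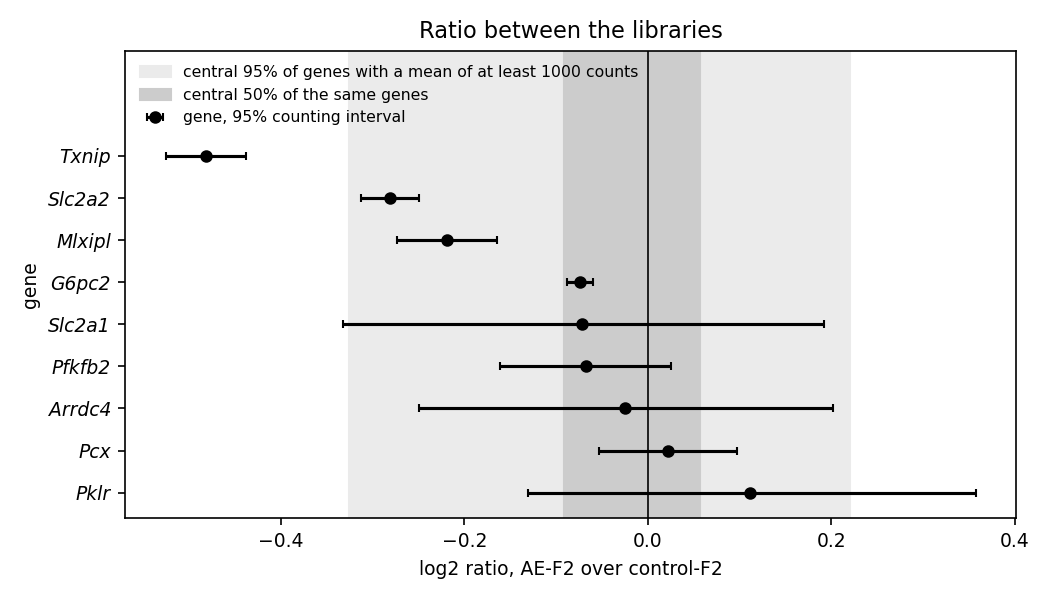
Log2 ratio (AE-F2 to control-F2) for each of the 9 genes on the x axis, with points for the ratio and bars for the 95% counting interval, 1 library per group. The darker band is the central 50% and the lighter band the central 95% of the 3471 genes averaging at least 1000 counts (-0.09 to 0.06 and -0.33 to 0.22), and only Txnip, at -0.48, lies outside it.

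Of the transporters among the 9 genes, Slc2a2 was the abundant one and the one that differed. It had 15368 counts in control-F2 and 16495 in the deeper AE-F2 library, which is 943 CPM and 776 CPM. The AE-F2 level was 1.22-fold lower, at a log2 ratio of -0.28 (-0.31 to -0.25). Of the 3471 well-measured genes (average of at least 1000 counts), 4.47% differed more in either direction and 3.31% had a lower ratio. Scaled to the β-cell markers the log2 ratio of Slc2a2 was -0.18 (-0.21 to -0.14). Slc2a1 encodes GLUT1, the transporter of endothelium and of many other tissues. It had 219 and 272 counts, 13.4 CPM and 12.8 CPM, for a log2 ratio of -0.07 (-0.33 to 0.19). At this depth a difference of the size seen for Slc2a2 lies within the interval of Slc2a1, and the ratio of Slc2a2 to Slc2a1 counts, 70.2 in the control-F2 and 60.6 in the AE-F2 library, had an interval that held equality (log2 change -0.21, -0.48 to 0.05).

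Per length of transcript, in TPM (counts scaled by exon length and depth), Slc2a2 was at 393 in control-F2 and 314 in AE-F2. Slc2a1 was at 9.19 and 8.50. Slc2a2 TPM was thus 42.8 times that of Slc2a1 in the control-F2 and 36.9 times in the AE-F2 library. The second most abundant member of the Slc2a family was Slc2a5, which encodes the fructose transporter GLUT5, at 245 TPM and 214 TPM. Slc2a2 made up 58.7% of the family's summed TPM in control-F2 and 55.7% in AE-F2, and Slc2a5 made up 36.6% and 37.9%. Slc2a8, Slc2a13 and Slc2a1 each held under 2% of it, and the plot of the family gives every member that passed the minimum of 10 counts. In CPM, Slc2a5 was lower in the AE-F2 library (log2 ratio -0.15, -0.21 to -0.10), and Slc2a13, the proton-coupled inositol transporter, was higher (0.42, 0.23 to 0.61). For Slc2a8 the log2 ratio was 0.24 and the interval, -0.02 to 0.50, held equality. Of 19 genes on a list of Slc2a and sodium-coupled Slc5a glucose transporters, 13 passed the minimum, of which 2 were higher and 2 lower, near the shares over all tested genes (13.2% and 13.7%). The other higher gene was Slc2a3, which encodes GLUT3, with 49 and 119 counts (0.89, 0.41 to 1.41), named here after its values were seen.

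**Figure D3:**
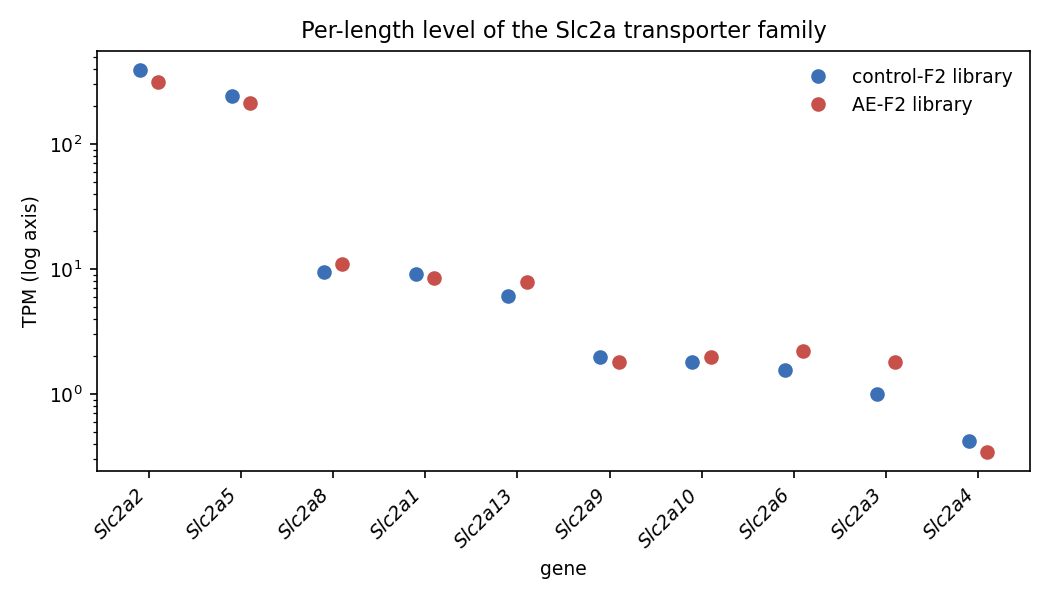
TPM on a log axis for the Slc2a family members with a mean of at least 10 counts, with 1 point per library. Slc2a2 (393 in control-F2 and 314 in AE-F2) and Slc2a5 (245 and 214) stand more than 10 times above every other member shown.

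G6pc2, the islet form of the glucose-6-phosphatase catalytic subunit, removes the phosphate that traps glucose in the cell and so works against the first step of glycolysis. It was by far the most abundant of the 9 genes, with 70003 and 86741 counts, which made up 67.1% and 70.2% of the counts of all 9. Its level was 4295 CPM in the control-F2 and 4080 CPM in the AE-F2 library. The log2 ratio was -0.07 with an interval from -0.09 to -0.06, so the level was lower by counting. The call depends on the scaling: with the libraries set to the median of the β-cell markers the ratio was 0.03 (0.02 to 0.05), and with trends in GC content and length removed it was -0.14. On the TMM scale 50.8% of the 3471 well-measured genes differed more. Per length it was the 17th gene of the control-F2 library, at 5220 TPM, and the 18th of the AE-F2 library, at 4813 TPM. The TPM of G6pc2 over that of Slc2a2 was 13.3 in the control-F2 and 15.3 in the AE-F2 library. Of 11 genes on a list of glucose-6-phosphatase and gluconeogenic steps, 8 passed the minimum, with 2 higher, 2 lower and a median log2 ratio of 0.04, beside 13.2% higher and 13.7% lower over all tested genes. Slc37a4, the transporter that brings glucose 6-phosphate to the enzyme, was higher (0.19, 0.09 to 0.29). Pck2, the mitochondrial phosphoenolpyruvate carboxykinase, was lower at 116 CPM and 101 CPM (-0.20, -0.29 to -0.11).

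The remaining enzymes did not differ beyond counting error on the TMM scale. Pfkfb2 makes and breaks down fructose 2,6-bisphosphate, the allosteric activator of phosphofructokinase, and had 1680 and 2091 counts. At 103 CPM and 98.3 CPM its log2 ratio was -0.07, with an interval from -0.16 to 0.03. A same-strand protein-coding gene, Gm29427 (4 and 5 counts), shares 17.4% of the exon length of Pfkfb2, so reads there could be divided between them. The interval also held equality for all 4 tested genes on a list of enzymes of this metabolite, with values of -0.01 for Pfkfb3, 0.18 for Pfkfb4 and -0.10 for Tigar. Over all tested genes only 13.2% were higher and 13.7% lower. Pklr encodes the pyruvate kinase of liver and red cells, and its 239 and 337 counts gave 14.7 CPM and 15.9 CPM (log2 ratio 0.11, -0.13 to 0.36). Exons of Hcn3, a channel gene on the opposite strand, overlap 21.97% of the exon length of Pklr. Hcn3 itself had 338 and 337 counts, and since strand is not stated for these libraries, reads of both genes may not be separated. Pkm, the pyruvate kinase gene used by most tissues, stood at 32.5 times the TPM of Pklr in the control-F2 and 29.0 times in the AE-F2 library, and was lower in CPM (735 and 711, -0.05, -0.08 to -0.01). Pcx, pyruvate carboxylase, which refills the citric acid cycle with oxaloacetate, had 2527 and 3347 counts. Its level was 155 CPM in the control-F2 and 157 CPM in the AE-F2 library, with a log2 ratio of 0.02 and an interval from -0.05 to 0.10. Scaled to the β-cell markers it was at 0.13 (0.05 to 0.20), so its call depends on the scaling too.

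The other genes of these pathways were described from the lists. Of 25 glycolysis genes 21 passed the minimum, of which 6 were higher and 4 lower, with a median log2 ratio of 0.00. Over all tested genes 13.2% were higher and 13.7% lower, and the difference from these shares was not tested. Gapdh (497 and 499 CPM) and Aldoa (497 and 496 CPM), enzymes of the middle of glycolysis, had ratios within 0.01 of 0. The higher genes included those for the low-Km hexokinase Hk1 (175 and 320 counts, 0.49, 0.22 to 0.76), the platelet-type phosphofructokinase Pfkp (0.31, 0.13 to 0.48) and lactate dehydrogenase A, Ldha (158 and 313 counts, 0.60, 0.32 to 0.89). Hk1 and Ldha are kept low in mature β-cells and are used by most other cell types. Slc16a1, the monocarboxylate transporter gene that β-cells also keep low, had 11 and 45 counts (1.601, 0.68 to 2.75) and was the only tested gene on this list past 2-fold, named after its values were seen. Of 32 genes for mitochondrial pyruvate use and cycling, all tested, 5 were higher and none lower, with a median of 0.03, where 13.2% of all tested genes were higher and 13.7% lower. The share of higher genes was near that background. Pdk4, a kinase that switches pyruvate dehydrogenase off, was at 26.9 CPM and 36.2 CPM (0.43, 0.26 to 0.60), and Pdhb, a subunit of that dehydrogenase, had a ratio of 0.18 (0.07 to 0.30).

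Txnip differed most of the 9 genes. It had 8839 counts in control-F2 and 8255 in AE-F2 although the latter was deeper, which is 542 CPM and 388 CPM. The AE-F2 level was 1.40-fold lower (log2 ratio -0.48, -0.53 to -0.44), and of the 3471 well-measured genes 1.38% differed more and 1.09% had a lower ratio. An antisense gene, Gm15441, overlaps 19.4% of the exon length of Txnip, and reads of this pair may not be separated either. Mlxipl, which encodes ChREBP, had 5109 and 5726 counts, 313 CPM and 269 CPM. It was 1.16-fold lower (-0.22, -0.27 to -0.16), and 5.91% of the same 3471 genes had a lower ratio. Scaled to the β-cell markers its log2 ratio was -0.11 (-0.17 to -0.06). Its annotated starts lie 17001 bases apart, and the gene-level count adds up the transcripts from both, so ChREBP-α and ChREBP-β cannot be told apart here. Arrdc4, the closest relative of Txnip among the α-arrestins, had 290 and 372 counts. At 17.8 CPM and 17.5 CPM its log2 ratio was -0.02, with an interval from -0.25 to 0.20, which does not reach the ratio of Txnip.

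**Figure D4:**
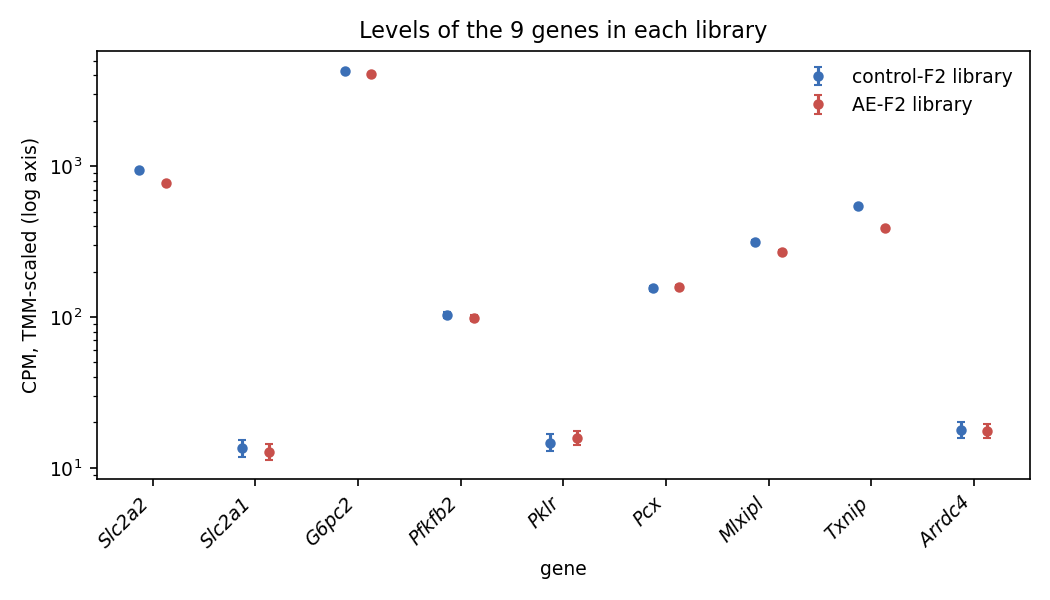
CPM on a log axis for each of the 9 genes in control-F2 and in AE-F2, with 1 point per library and bars for the 95% counting interval. The points of Txnip (542 and 388 CPM) and Slc2a2 (943 and 776 CPM) are the farthest apart, and those of Slc2a1, Pfkfb2, Pklr, Pcx and Arrdc4 have overlapping bars.

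Ratios between genes of the same library do not depend on the scaling between libraries. The count ratio of Txnip to Arrdc4 was 30.5 in the control-F2 and 22.2 in the AE-F2 library, a log2 change of -0.46 (exact conditional interval -0.69 to -0.23). That of Slc2a2 to G6pc2 was 0.220 and 0.190, a log2 change of -0.21 (-0.24 to -0.17). Slc2a2 to Mlxipl was 3.01 and 2.88, and its interval (-0.13 to 0.00) just held equality, the upper bound lying above 0. Over all 36 pairs of the 9 genes, 18 had an interval without equality, with no correction for the number of pairs. Txnip took part in 8 such pairs out of its 8, Slc2a2 in 6, Mlxipl in 5, G6pc2 and Pcx in 4 each, Pfkfb2 and Pklr in 3 each, Arrdc4 in 2 and Slc2a1 in 1. Of the 15 pairs that hold none of Txnip, Slc2a2 and Mlxipl, a set chosen after the values were seen, 1 lay off equality, G6pc2 to Pcx (-0.10, -0.17 to -0.02).

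Per length the order of the 9 genes in the control-F2 library was G6pc2, Txnip (417 TPM), Slc2a2 (393), Mlxipl (136), Pcx (78.3), Pfkfb2 (34.1), Pklr (10.9), Arrdc4 (10.6) and Slc2a1 (9.19). In the AE-F2 library Slc2a2 (314 TPM) stood above Txnip (289), and the rest kept their places with Mlxipl at 113, Pcx at 77.1, Pfkfb2 at 31.6, Pklr at 11.4, Arrdc4 at 10.1 and Slc2a1 at 8.50. Counting intervals of neighbours did not overlap from G6pc2 down to Pfkfb2. With the longest transcript as the length, Slc2a2 (260 TPM) and Txnip (256 TPM) did overlap in the AE-F2 library. Those of Pklr, Arrdc4 and Slc2a1 overlapped between neighbours in both libraries, so their order is not resolved.

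Of 25 genes listed as ChREBP targets 23 passed the minimum, of which 7 were lower and 4 higher, with a median log2 ratio of -0.01. Over all tested genes 13.7% were lower and 13.2% higher. The share of higher targets was near that background and the share of lower targets above it, with no test of either. Txnip and Slc2a2, both among the lower targets, belong to the 9 genes, which were chosen with earlier results known. Both averaged at least 1000 counts, a level at which 25.5% of genes were lower. Besides Txnip and Slc2a2, the lower genes included Rgs16, a regulator of G-protein signalling, at 60.9 CPM and 44.8 CPM (-0.44, -0.57 to -0.31). Klf10, a zinc-finger repressor, was at 37.9 and 27.2 CPM (-0.48, -0.65 to -0.31), and Bhlhe40, a clock-linked repressor, at 29.1 and 21.3 CPM (-0.45, -0.64 to -0.26). Other genes of the list stood near equality or were higher. Acly, ATP citrate lyase, stood at 1443 and 1440 CPM, Fasn, fatty acid synthase, was higher (136 and 146 CPM, 0.11, 0.03 to 0.18), and Scd1, a fatty acid desaturase with 29 and 144 counts, was the only tested target past 2-fold (1.91, 1.35 to 2.56), named after its values were seen. Arrdc4 and Pklr, the other targets among the 9 genes, held equality as given above.

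Of 10 genes of the Mondo family and its partners 9 passed the minimum, of which 3 were lower, 1 higher and the median was -0.07, beside 13.7% lower and 13.2% higher over all tested genes. Mlxip, the Mlxipl paralogue that encodes MondoA, stood at 81.0 CPM in both libraries (0.00, -0.10 to 0.11). Mlxipl TPM was 5.82 times that of Mlxip in the control-F2 and 4.996 times in the AE-F2 library. Mnt, a repressor of the same network, was lower (-0.22, -0.35 to -0.09), and Mxi1, another, was higher (0.26, 0.08 to 0.44). On the list of α-arrestins and the thioredoxin system, 10 of 12 genes passed, with 3 lower, 2 higher and a median of -0.08, to be read against the same 13.7% and 13.2%. Arrdc3 was the other lower α-arrestin, at 40.7 and 30.9 CPM (-0.40, -0.56 to -0.24). Txn1, the thioredoxin that TXNIP binds, was higher at 23.4 and 28.5 CPM (0.28, 0.10 to 0.47), as was its reductase Txnrd1 at 116 and 128 CPM (0.14, 0.05 to 0.22).

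Transcription factors that act on glucose-sensing genes in β-cells were lower in 7 and higher in none of 13 tested, of 14 listed, with a median of -0.07. All 7 are among the 10 of them that averaged at least 1000 counts, a level at which 25.5% of genes were lower, and the median was 0.036 when the libraries were scaled to the β-cell markers. Pdx1, Mafa and Nkx6-1 are also among those markers, so this scaling is set in part by the list's own genes. Nkx6-1 was at 538 and 448 CPM (-0.26, -0.31 to -0.22), Insm1 at 247 and 210 CPM (-0.24, -0.30 to -0.18), Pdx1 at 217 and 193 CPM (-0.17, -0.23 to -0.10) and Mafa at 474 and 442 CPM (-0.10, -0.15 to -0.06). All 4 are factors of β-cell identity. On a list of 20 hypoxia-responsive genes, which holds Slc2a1, 17 passed, with 3 higher, 3 lower and a median of -0.01, beside 13.2% higher and 13.7% lower over all tested genes. Vegfa, the vascular growth factor, was lower (565 and 483 CPM, -0.23, -0.27 to -0.19) and Pgk1, a glycolytic kinase, was higher (0.26, 0.17 to 0.36).

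Markers of β-cells and of other cell types also differed between the libraries, and their counts stand against 13.7% lower and 13.2% higher over all tested genes. Of 14 β-cell markers 11 were lower and 2 higher, with a median log2 ratio of -0.11 and ratios from -0.26 for Nkx6-1 to 0.23 for Iapp, while their summed level, which is mostly insulin mRNA, was 203858 CPM and 203955 CPM. Each of the 14 averaged at least 1000 counts, a level at which 25.5% of genes were lower and 16.0% higher. Txnip had a lower ratio than each of the 14 markers. Slc2a2 did too, but its interval overlapped those of Nkx6-1 (-0.31 to -0.22) and Kcnj11 (-0.31 to -0.18), so that order is not resolved. When the libraries were scaled to the median of these markers, Txnip was at -0.38 (-0.42 to -0.33), and the values of Slc2a2, Mlxipl, G6pc2 and Pcx are those given with each gene. The sign of Slc2a1, Pfkfb2 and Arrdc4, which held equality, also turned.

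The summed level of α-cell markers was 18150 CPM and 24300 CPM, mostly Gcg (log2 ratio 0.46), with 4 of 10 tested higher and none lower. Acinar markers were lower in 12 of 14 and higher in 1, from 2970 to 2625 CPM in sum, with Amy2a5 as the higher one. Most of the acinar markers averaged at least 1000 counts, a level at which 25.5% of genes were lower. Immune markers were higher in 9 of 13 and lower in 1 (320 and 483 CPM), and Cd3e had no count in the control-F2 library. Mesenchymal markers were higher in 8 of 10 and lower in 1 (332 and 399 CPM). Erythroid markers were higher in 4 of 5 (59.3 and 82.4 CPM), with Slc4a1 at 0 in control-F2. Endothelial markers summed to 1011 and 979 CPM (1 higher and 2 lower of 10), duct markers to 444 and 496 CPM (3 higher, none lower of 7), and δ-cell and PP-cell markers to 6181 and 6235 CPM (1 higher, none lower of 6). The part of these cells in the values of Slc2a2, Slc2a1, Hk1, Ldha, Slc2a3 or the other genes was not tested.

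Immediate early genes, which are induced within minutes by calcium, stress or handling of cells, were lower in 15 and higher in none of 19 tested, of 21 listed. Their median log2 ratio was -0.83, 7 were at least 2-fold lower, and over all tested genes 13.7% were lower and 0.660% at least 2-fold lower. Their summed level was 5187 CPM in the control-F2 and 2703 CPM in the AE-F2 library. Fos was at 1142 and 575 CPM (-0.99), Egr1 at 966 and 519 CPM (-0.90) and Fosb at 488 and 140 CPM (-1.80). Txnip, Klf10, Rgs16, Bhlhe40 and Arrdc3 were lower too, but a single contrast between libraries cannot show that genes move together. The part of the immediate early genes in those values was not tested. The plot of lists shows the 9 genes within each list.

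**Figure D5:**
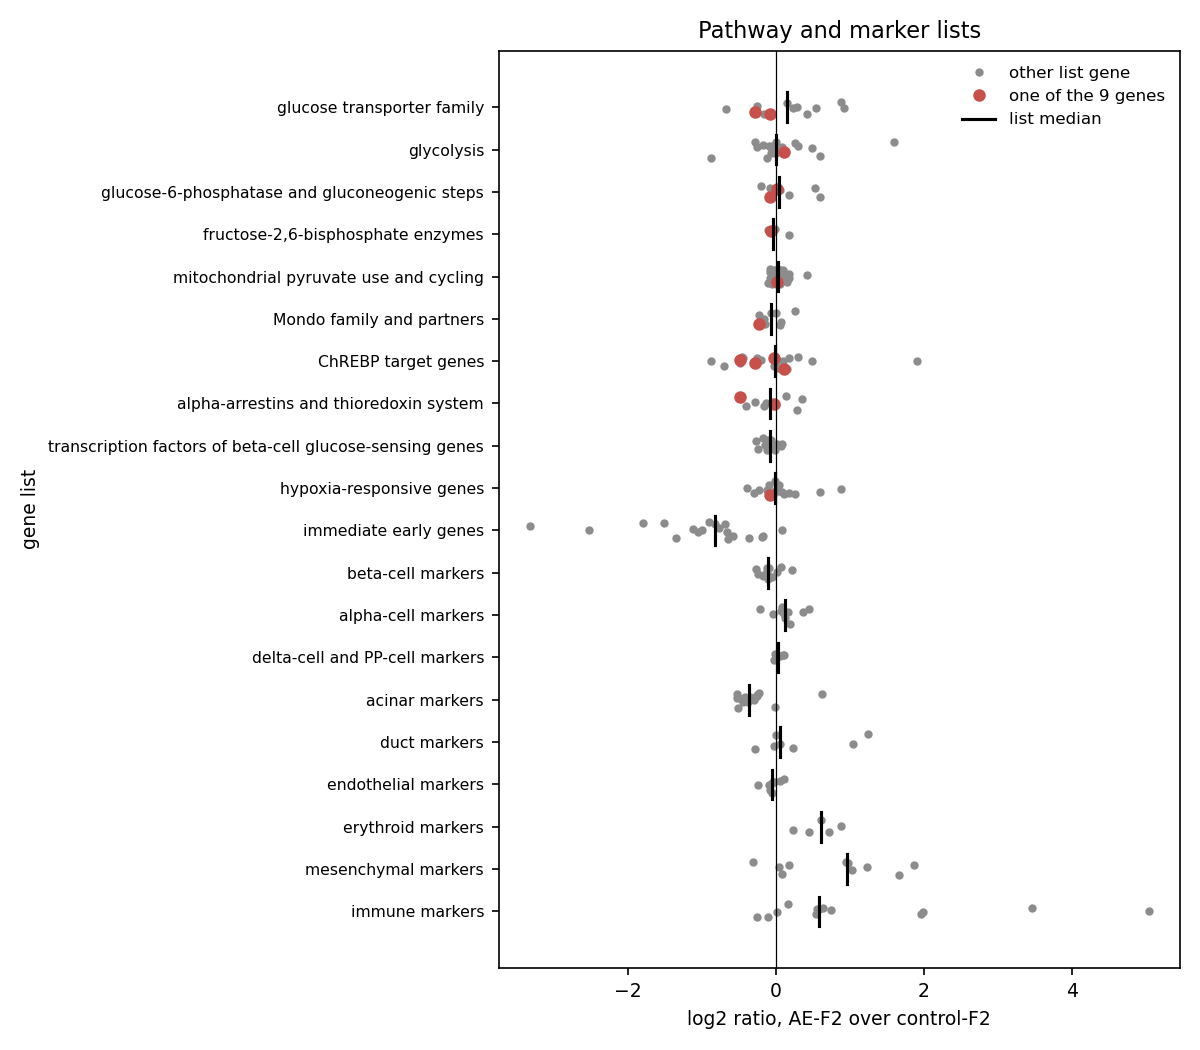
Log2 ratio (AE-F2 to control-F2) for every tested gene of the 11 pathway and 9 marker lists, with 1 point per gene, larger red points for the 9 genes and a vertical bar for each list's median. The immediate early genes have the lowest median, -0.83, and the mesenchymal markers the highest, 0.97.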

How the data were processed

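Per the labels' processing notes, Bowtie2, RSEM and DESeq2 were used, whereas the study's methods name HISAT2 for alignment of oligo(dT)-enriched mRNA reads. The genome build, annotation and strandedness are not given in the sources used here. The authors deposited estimated counts per gene, unscaled, in 1 file per library. With no tolerance, 8.56% of the control-F2 values and 9.28% of the AE-F2 values were not whole. Counts were rounded. Symbols (21806 of 21899 genes), lengths and GC content came from GENCODE M21 (GRCm38), and promoters from RefSeq (GRCm38.p6).

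Libraries were scaled with TMM in edgeR 4.0.16 (R 4.3.3), and the 13627 genes averaging 10 counts or more were retained. Log2 ratios used a pseudocount of 0.5 counts. 95% Clopper-Pearson intervals came from scipy 1.17.1 and cover counting error only. Since 1 library of each group was analysed, there was no model fit and no p-value. TPM was computed from the union of exons. The ratio and its interval were tested on simulated data at the real depths. The 9 genes and all lists were chosen with earlier results of these data known. Named were the 9 genes and, from each pathway list, up to 4 with the highest mean CPM and up to 4 with the largest absolute ratio among those averaging 100 counts or more, and from each marker list up to 4 of the most abundant. Not all of these are printed, and a gene outside this rule is said to be named after its values were seen, or is given for its marker role. Alternatives were DESeq2 1.42.0 size factors, library totals with and without Ins1, Ins2 and mitochondrial genes, a pseudocount of 5, other minimum counts, a 1.5-fold threshold, removal of GC and length trends, thinning of the AE-F2 counts, and, chosen after seeing the data, scaling to the β-cell markers.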

Additional observations from a re-analysis of the deposited data

How the results depend on the processing

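No paired analysis was possible because 1 library per group was analysed, and for the same reason no library could be left out. Of 63 recomputed ratios of the 9 genes 56 moved by less than their counting interval and 6 further, while 1, that of G6pc2, was called on one side and changed sign. Slc2a1, Pfkfb2 and Arrdc4, whose intervals held equality, also changed sign under β-cell marker scaling. Across all settings Txnip ranged from -0.50 to -0.38, Slc2a2 from -0.29 to -0.18 and Mlxipl from -0.23 to -0.11. Scaling to the β-cell marker median, chosen after seeing the data, raises every ratio by construction, since that median was -0.11. It gave -0.18 for Slc2a2, -0.11 for Mlxipl, -0.38 for Txnip, 0.038 for Pfkfb2 and 0.13 for Pcx, and G6pc2 reversed to 0.032. It raised all 11 list medians alike, and 6 turned from below to above 0, those of transcription factors (0.036), Mondo family (0.040), α-arrestins (0.026), ChREBP targets (0.098), hypoxia (0.10) and fructose 2,6-bisphosphate enzymes (0.067). The median of gluconeogenic steps reached 0.14. Removing GC and length trends took G6pc2 to -0.14, and the cause was not tested. Of all genes, 430 were at least 2-fold higher and 90 lower, which became 1198 and 445 at a minimum mean of 1 count, 30 and 19 at 100 counts, and 818 and 300 at 1.5-fold. Pathway list genes at least 2-fold higher numbered 2 of 153 tested, beside 3.16% of all tested genes. They numbered 7 at a minimum of 1 count, 0 at 100 counts and 6 at 1.5-fold. Those at least 2-fold lower numbered 7, all of them immediate early genes, beside 0.660% of all tested genes. At 1.5-fold the lower ones numbered 17. Depth limits Slc2a1, Pklr and Arrdc4, whose counting intervals are the widest of the 9 (-0.33 to 0.19, -0.13 to 0.36 and -0.25 to 0.20).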
